A study of Homo sapiens with 6 samples.

Results

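The genes described here are the semaphorins, their plexin and neuropilin receptors, and the Eph receptors with their ephrin ligands, as read by RNA-seq in AN3CA, a long-established line of human endometrial cancer cells. Rows were taken by symbol alone. Every row named as a semaphorin of classes 3 to 7, a plexin, a neuropilin, an Eph receptor or an ephrin entered. No measured value decided which rows entered, but the families were chosen with earlier results of these data known. Of 17471 genes with values, 49 were of this kind. They comprised 6 secreted and 12 membrane semaphorins, 2 neuropilins, 9 plexins, 12 Eph receptors and 8 ephrins. Other genes of these families were not analysed here.

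The series held 6 libraries of AN3CA cells. In the 3 shEV libraries the labels give the genotype as WT, and the study's methods describe an empty hairpin vector, although the study elsewhere calls this control scrambled. In the 3 shPAX2 libraries the cells carried a vector expressing a short hairpin RNA against PAX2, a paired-domain transcription factor of the Müllerian duct and of the endometrial gland. Both groups were transduced with lentivirus, selected in puromycin and grown in MEM with serum, and 1 hairpin stood for the knockdown. The labels number the replicates within each group and do not say whether they came from separate cultures, so each p-value measures the spread between these libraries, which may be technical. The labels give uterus as the tissue and epithelial cells as the cell type, and AN3CA stands for endometrial epithelium only as a cell line.

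Semaphorins are secreted or membrane-bound ligands that bind plexins, whose cytoplasmic domain acts on small GTPases of the Ras and Rap families and so loosens adhesion and collapses the leading edge of the cell. Class 3 semaphorins mostly need a neuropilin to hold them on the plexin, and neuropilins also bind vascular endothelial growth factors. Eph receptors are receptor tyrosine kinases that meet membrane-tethered ephrins on a neighbouring cell, and both partners can signal on contact. The families are best known for steering axons and vessels, and in epithelia they take part in sorting cells and in setting boundaries between them.

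PAX2 itself was measured first as a check of the labels. Its level in TPM (a unit of transcripts in which reads are divided by the length of the gene and scaled to a fixed sum per library) was 4.03, 3.66 and 2.74 in shEV replicates 1 to 3 and 0.916, 0.723 and 1.17 in shPAX2 replicates 1 to 3. Each shPAX2 library lay under each shEV library, and the mean was 26.9% of the shEV mean, so some PAX2 transcript was left. The log2 fold change was −1.47 (SE 0.18, adjusted p = 0.000294 by limma). The depth, as whole reads recovered from the deposited values, was 10730909 to 18221859 reads in shEV and 19422615 to 29405787 in shPAX2. As each shPAX2 library was the deeper, depth and group cannot be told apart.

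A gene was tested where 3 or more libraries reached a TPM of 0.5. The test was limma on log2(TPM + 0.5), with p-values adjusted over 13163 genes by the Benjamini-Hochberg method, and a gene was past the threshold where its adjusted p was under 0.05 and its log2 fold change was 1 or more in size. Fold changes are of shPAX2 against shEV on this scale, on which the change of a low gene comes out too small. Of the 49 genes, 29 were tested and 20 lay below the filter. NRP1 and PLXNA2 were past the threshold and both fell, which made 2 of 29 in either direction, against 4.54% of all tested genes. By direction, 2 of 29 were lower against 3.11% of all tested genes, and 0 of 29 were higher against 1.43%. At an adjusted p under 0.05 with no limit on the fold, 15 of 29 were lower against 30.5% of all tested genes, and 1 of 29 was higher against 12.2%. The 2 groups of libraries did not overlap in 16 genes that were lower in shPAX2, against 39.0% of all tested genes, and in 1 that was higher, against 15.9%.

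Of the 13 tested receptors (neuropilin, plexins and Eph receptors), 11 fell at an adjusted p under 0.05, against 30.5% of all tested genes, 2 did not pass and none rose, and their median log2 fold change was −0.65. NRP1 and PLXNC1 entered the 13 through their shEV libraries alone, so their place among the 11 is not independent of the filter. Of the 16 tested ligands (semaphorins and ephrins), 4 fell, 1 rose and 11 did not pass, which is near the 30.5% lower and 12.2% higher of all tested genes, with a median of −0.12. The median of all 29 was −0.30 and that of all tested genes −0.10. Median-of-ratios scaling moved the all-gene median by 0.11, so a change of that size does not stand apart from the scaling. Under median-of-ratios scaling 9 receptors and 2 ligands fell, and under quantile normalization 10 and 2. The 30.5% is of the fit as described, and the share of all tested genes under these scalings was not counted. The counts of receptors and of ligands were added as results after the data were seen, so they are a description. The difference between receptors and ligands was not tested.

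**Figure D1:**
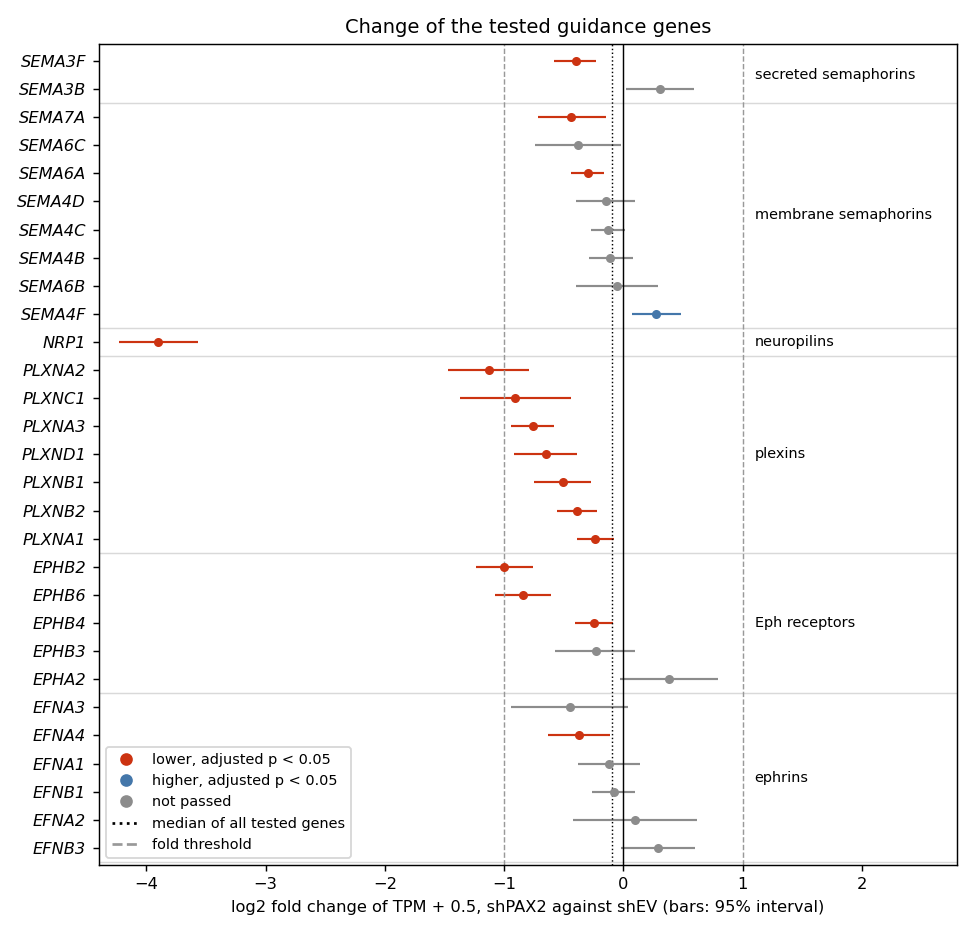
The log2 fold change of TPM + 0.5 (x axis, shPAX2 against shEV, 95% interval as a bar) for the 29 tested guidance genes, grouped by role, with the median of all tested genes as a dotted line and the fold threshold of 1 as dashed lines. NRP1 at −3.90 stands far to the left, the 7 plexins lie between −1.13 and −0.24, and the semaphorins and ephrins lie closer to 0.

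Of the neuropilins, the co-receptors of class 3 semaphorins and of vascular endothelial growth factors, NRP1 was nearly lost. NRP1 (GRCh37 chr10:33466420-33625190, minus strand) had a TPM of 7.02, 7.06 and 8.86 in shEV and of 0.0221, 0.0376 and 0.0693 in shPAX2. The recovered reads were 223, 369 and 473 in shEV and 2, 3 and 4 in shPAX2, though the shPAX2 libraries were the deeper. All 3 shEV libraries were therefore high, all 3 shPAX2 libraries held at most 4 reads each, and the groups were far apart. The log2 fold change was −3.90 (SE 0.15, adjusted p = 3.55e-07), rank 9 from the lowest of the tested genes. An exact permutation test, two-sided, gave p = 0.1, the smallest that 3 against 3 libraries allow. In a culture read in bulk, fewer cells carrying a transcript and less of it in each cell cannot be told apart.

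The size of the NRP1 change depended on how its few shPAX2 reads were handled. Over summed reads, the shPAX2 share of all reads was 0.517% of that in shEV (exact 95% binomial interval 0.236% to 0.986%, counting error only), a ratio of 193 (101 to 424). The log2 fold change ran from −3.04 with a pseudocount of 1 to −7.44 with limma voom on the recovered reads. NRP1 passed the filter through its shEV libraries alone. NRP2, the other neuropilin, was read 5, 3 and 4 times in shEV and 2, 3 and 0 times in shPAX2 and lay below the filter, so NRP1 made up 99.0% ± 0.611 (SD, n = 3) of the neuropilin TPM in shEV.

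The tested genes nearest to NRP1 on chromosome 10 did not share its size of change. ITGB1, the integrin beta-1 chain, lies before it and had a log2 fold change of 0.09 (SE 0.05, adjusted p = 0.191). PARD3, a polarity protein on the other side, fell by 0.45 (SE 0.06, adjusted p = 0.000751). CCDC7 fell by 0.41 (SE 0.09, adjusted p = 0.00606).

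All 7 tested plexins fell at an adjusted p under 0.05 in the fit as described, against 30.5% of all tested genes, with a median log2 fold change of −0.65. This count too was added as a result after the data were seen. PLXNC1 entered the 7 through its shEV libraries alone. With the filter at a TPM of 1, where PLXNC1 was not tested, 6 of 6 plexins fell. Under median-of-ratios scaling or quantile normalization 6 of the 7 passed, and no plexin turned in direction. The share of all tested genes under these scalings was not counted. Their summed TPM, over all 9 listed plexins, was 100, 102 and 92.9 in shEV and 72.2, 71.8 and 66.9 in shPAX2, so the groups did not overlap and shPAX2 held 71.6% of the shEV level. Class A plexins partner with neuropilins, class B plexins bind class 4 semaphorins, PLXNC1 binds SEMA7A and PLXND1 is the receptor of SEMA3E in vessels.

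PLXNA2, a class A plexin that binds class 6 semaphorins as well as neuropilin-held class 3 ones, had the largest fold among them at a pseudocount of 0.5, while PLXNC1 had the larger one at a pseudocount of 0.1, under quantile normalization, with limma voom and by mean TPM. PLXNA2 (GRCh37 chr1:208195587-208417729, minus strand) had a TPM of 3.92, 3.38 and 2.87 in shEV and of 1.51, 1.18 and 1.15 in shPAX2. The lowest shEV library was well above the highest shPAX2 library, and the fitted log2 change was −1.13 (SE 0.15, adjusted p = 0.000516), and the mean fell to 37.7% of shEV. The exact two-sided permutation p was again 0.1. PLXNA2 stayed under an adjusted p of 0.05 in all 15 alternatives that tested it, and its fold dropped below the threshold with a pseudocount of 1 (−0.94) and with quantile normalization (−0.88).

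PLXNC1 (GRCh37 chr12:94542353-94701451) was the lowest of the tested plexins, at 0.982, 0.567 and 0.569 TPM in shEV and 0.189, 0.127 and 0.0945 TPM in shPAX2. These values stood for 40, 38 and 39 recovered reads in shEV and 22, 13 and 7 in shPAX2. The groups did not overlap, and PLXNC1, like NRP1, reached the filter through its shEV libraries alone. Its mean in shPAX2 was 19.4% of that in shEV, while its log2 fold change on the scale with the pseudocount was −0.91 (SE 0.21, adjusted p = 0.00735). With a pseudocount of 0.1 it was −1.75 and with limma voom on recovered reads −2.20.

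PLXNA3, the class A plexin coupled with SEMA3F, was at 13.6, 14.4 and 13.5 TPM in shEV and 7.90, 8.56 and 7.46 TPM in shPAX2. The libraries within each group lay close together, and the log2 fold change was −0.76 (SE 0.08, adjusted p = 0.000121). PLXNA3 overlaps LAGE3 on the opposite strand, and as the strand setting of the counting is not given in the sources used here, reads of the pair may not be separated. LAGE3 had a mean TPM of 23.4 in shEV and 33.1 in shPAX2.

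The other 4 tested plexins fell by smaller folds. PLXND1 fell from 6.96 ± 0.479 to 4.26 ± 0.642 TPM (mean ± SD, n = 3 per group) and PLXNB1 from 8.69 ± 0.538 to 5.96 ± 0.730. PLXNB2, the most abundant plexin, fell from 46.8 ± 4.05 to 35.6 ± 1.21 TPM and made up 47.6% of the plexin TPM in shEV and 50.6% in shPAX2. PLXNA1 had the smallest change, from 17.4 ± 0.927 to 14.7 ± 0.369 TPM, or −0.24 on the log2 scale (adjusted p = 0.0214 by limma). That call did not hold under median-of-ratios scaling (−0.13, adjusted p = 0.172), under quantile normalization (−0.09, adjusted p = 0.335), or without shEV replicate 2 (adjusted p = 0.0741), shEV replicate 3 (0.0543), shPAX2 replicate 2 (0.0691) or shPAX2 replicate 3 (0.0677).

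**Figure D2:**
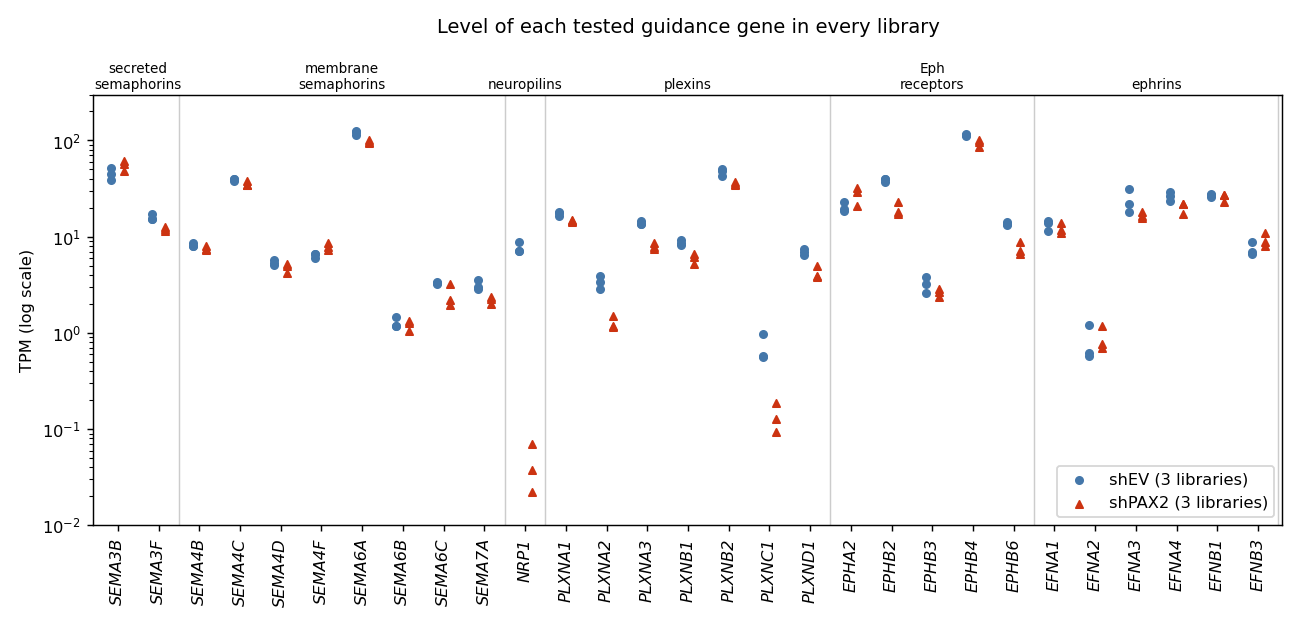
The TPM of each of the 29 tested guidance genes (y axis, log scale) in the 3 shEV libraries (circles) and the 3 shPAX2 libraries (triangles), grouped by role. NRP1 drops from above 7 TPM to below 0.07 TPM, PLXNC1 and PLXNA2 are separated by group, and most ligands lie at about the same height in both groups.

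The bases before the gene starts of 3 receptors that fell, PLXNA2, PLXNC1 and EPHB2, are shown because they had the largest folds among the receptors with an entry in the table used. The sequences are from RefSeq (GRCh38.p14), 250 bases that end just before the outermost start listed for the gene, read 5′ to 3′ on the strand of the gene, with GGGCGG, the core of the GC box, in capitals on either strand. Of the 49 genes, 43 had an entry, and NRP1 had none.
PLXNA2 (chr1:208244385-208244634, minus strand): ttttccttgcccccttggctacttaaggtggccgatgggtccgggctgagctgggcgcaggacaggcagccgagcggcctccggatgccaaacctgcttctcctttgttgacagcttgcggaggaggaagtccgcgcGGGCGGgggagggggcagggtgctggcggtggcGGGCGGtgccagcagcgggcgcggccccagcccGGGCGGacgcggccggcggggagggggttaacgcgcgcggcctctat
PLXNC1 (chr12:94148327-94148576, plus strand): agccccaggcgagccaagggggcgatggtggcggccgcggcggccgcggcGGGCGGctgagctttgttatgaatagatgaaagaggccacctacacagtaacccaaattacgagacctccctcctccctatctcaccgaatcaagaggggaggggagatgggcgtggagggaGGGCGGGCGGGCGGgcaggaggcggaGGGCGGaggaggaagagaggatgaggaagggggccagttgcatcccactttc
EPHB2 (chr1:22710588-22710837, plus strand): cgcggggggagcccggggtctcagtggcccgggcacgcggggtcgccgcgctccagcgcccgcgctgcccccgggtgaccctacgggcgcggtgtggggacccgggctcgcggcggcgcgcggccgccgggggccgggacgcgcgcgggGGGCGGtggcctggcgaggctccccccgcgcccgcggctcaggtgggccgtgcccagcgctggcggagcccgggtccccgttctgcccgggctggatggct

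GGGCGG stood 3 times before PLXNA2, 5 times before PLXNC1 with some copies overlapping, and 1 time before EPHB2. It was present before 12 of the 13 tested guidance genes that fell and have an entry, and before all 12 of the other tested ones with an entry, against 67.9% of the 9090 tested genes with an entry and 42.2% of all 27305 promoters. GTCANGC, letters of a paired-domain half-site read on both strands, was in 0 of the 13, in 2 of the 12, in 10.2% of the tested genes and in 9.17% of all promoters. The G and C content was 84.8% before EPHB2, 72.4% before PLXNA2 and 65.2% before PLXNC1. Its median was 72% before the tested guidance genes with an entry and 65.2% before all tested genes with an entry. GGGCGG is itself made of G and C, and its counts were not corrected for this content. These matches are letters in a window of 250 bases and were not tested as binding sites.

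Of 12 listed Eph receptors, 5 were tested, of which 3 fell at an adjusted p under 0.05, against 30.5% of all tested genes, and 2 did not pass. The tested ones were EPHA2 and the EphB receptors EPHB2, EPHB3, EPHB4 and EPHB6, so most were of the EphB class, which binds ephrin-B ligands. The 3 that fell were EPHB2, EPHB4 and EPHB6. The summed TPM of the 12 was 196, 190 and 184 in shEV and 157, 158 and 142 in shPAX2, with no overlap.

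EPHB2, a kinase known from the intestinal crypt where it positions epithelial cells, changed most. EPHB2 (GRCh37 chr1:23037332-23247993, plus strand) was at 40.1, 39.8 and 37.1 TPM in shEV and at 23.1, 18.0 and 17.1 TPM in shPAX2. The groups stood well apart, and the mean fell to 49.8% of shEV. Its log2 fold change was −1.0 (SE 0.11, adjusted p = 0.000168), which before rounding lay just outside the fold threshold, while PLXNA2 at −1.13 was the gene just inside it. EPHB2 was past the threshold without shEV replicate 3 (−1.03), without shPAX2 replicate 1 (−1.13) and with a pseudocount of 0.1 (−1.01).

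EPHB6, a member of the family whose kinase domain is inactive, was at 13.3, 13.4 and 14.3 TPM in shEV and 8.73, 7.06 and 6.56 TPM in shPAX2. The groups did not overlap, and the log2 fold change was −0.84 (SE 0.11, adjusted p = 0.000348). EPHB4, the receptor of ephrin-B2 and the most abundant Eph receptor, went from 113 ± 3.28 to 95 ± 7.89 TPM, a log2 fold change of −0.25 (adjusted p = 0.0184 by limma). The EPHB4 call did not hold under median-of-ratios scaling (−0.14, adjusted p = 0.140) or on leaving out replicate 1 (0.0565) or 2 (0.0576) of shEV or replicate 3 of shPAX2 (0.0556), and EPHB4 overlaps SLC12A9 on the opposite strand.

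EPHA2, the main EphA receptor of many epithelial cancers, was the sole tested receptor with a positive estimate. It was at 23.1, 19.6 and 18.5 TPM in shEV and 20.6, 31.7 and 29.0 TPM in shPAX2. The groups overlapped through shPAX2 replicate 1, and the log2 fold change of 0.38 (95% interval −0.03 to 0.79, adjusted p = 0.116 by limma) did not pass. Leaving out shPAX2 replicate 1 gave 0.56 (adjusted p = 0.00325). EPHB3 did not pass either, at −0.23 (95% interval −0.57 to 0.10), and its estimate was 0.04 under quantile normalization. As a share of the Eph receptor TPM, EPHB2 went from 20.5% ± 0.388 in shEV to 12.7% ± 1.77 in shPAX2 (SD, n = 3), and EPHA2 from 10.7% ± 0.920 to 17.9% ± 4.10.

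**Figure D3:**
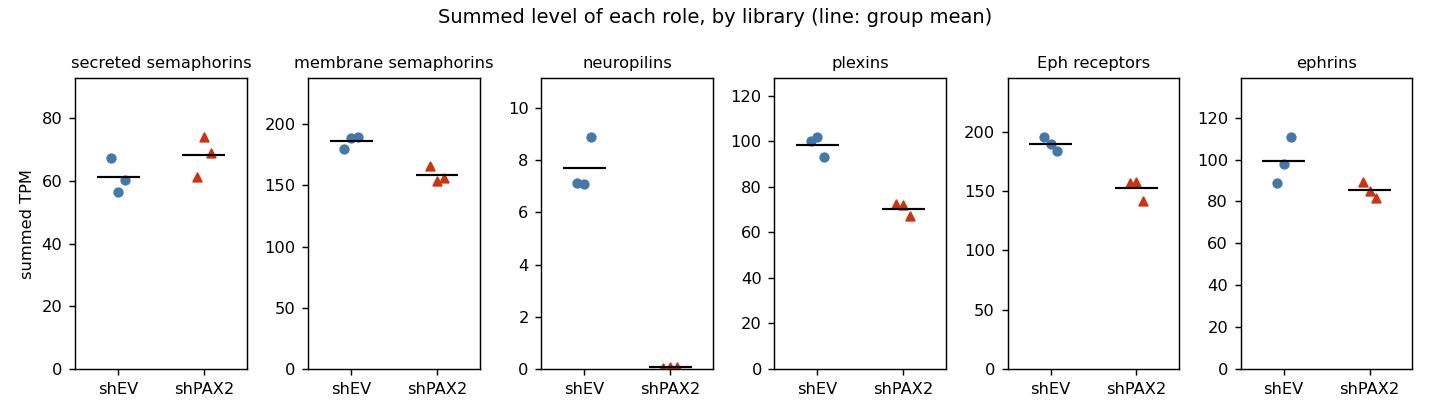
The summed TPM of all listed genes of each role (y axis, from 0) in each library, with the group mean as a line and 3 libraries per group. The plexins, the neuropilins, the membrane semaphorins and the Eph receptors do not overlap between the groups, while the secreted semaphorins and the ephrins do.

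Of the 6 secreted class 3 semaphorins, SEMA3B and SEMA3F were tested and together made up nearly all of the level of the class. SEMA3F, a ligand that binds NRP2, fell from 15.4, 17.3 and 15.3 TPM in shEV to 12.5, 12 and 11.4 TPM in shPAX2. All shPAX2 libraries were lower, and the log2 fold change was −0.40 (SE 0.08, adjusted p = 0.00299). SEMA3B, the most abundant secreted semaphorin and a gene often lost in tumours, was at 51.6, 38.9 and 44.7 TPM in shEV and at 48.3, 61.8 and 57.1 TPM in shPAX2. Its groups overlapped, and the log2 fold change of 0.31 (95% interval 0.02 to 0.59, adjusted p = 0.0795 by limma) did not pass. SEMA3B did pass under median-of-ratios scaling (0.42, adjusted p = 0.0216), under quantile normalization (0.34, 0.0440), with limma voom (0.34, 0.0147), without shEV replicate 1 (0.41, 0.0263) and without shPAX2 replicate 1 (0.41, 0.0295). SEMA3B and SEMA3F lie near each other on chromosome 3 (GRCh37 chr3:50304990-50314977 and chr3:50192478-50226508), and their estimates had opposite signs.

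Among the 12 membrane semaphorins 8 were tested, of which 2 fell, 1 rose and 5 did not pass, which is near the shares of all tested genes (30.5% lower and 12.2% higher), with a median log2 fold change of −0.14. SEMA6A, a ligand of PLXNA2 and PLXNA4, was the most abundant of them, at 113, 122 and 124 TPM in shEV and 99.9, 93.4 and 97.0 TPM in shPAX2. The groups did not overlap, and the log2 fold change was −0.30 (SE 0.06, adjusted p = 0.00404). SEMA7A, the lipid-anchored ligand of PLXNC1, went from 3.15 ± 0.340 to 2.19 ± 0.181 TPM (SD, n = 3), a log2 fold change of −0.44 (adjusted p = 0.0219 by limma). The SEMA7A call did not hold under median-of-ratios scaling (adjusted p = 0.0513), quantile normalization (0.323) or the replicate block (0.0525), nor without shEV replicate 3 (0.0742) or shPAX2 replicate 3 (0.0740).

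SEMA4F was the 1 guidance gene that rose at an adjusted p under 0.05. It was at 6.68, 6.04 and 6.60 TPM in shEV and at 8.57, 7.77 and 7.35 TPM in shPAX2. The groups did not overlap, and the log2 fold change was 0.27 (SE 0.09, adjusted p = 0.0388). The call did not hold with the replicate block (0.0577) or without shEV replicate 1 (0.0548), shEV replicate 2 (0.117), shEV replicate 3 (0.0665), shPAX2 replicate 1 (0.1) or shPAX2 replicate 2 (0.0988), though the estimate stayed between 0.22 and 0.49 in the alternatives.

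The 5 membrane semaphorins that did not pass lay between −0.38 and −0.05. SEMA6C was at −0.38 (adjusted p = 0.0863 by limma) and at −0.55 (0.0102) without shPAX2 replicate 1, the library nearest to shEV in it. SEMA4C, a ligand of PLXNB2, was at −0.13 (adjusted p = 0.114 by limma) and at −0.17 (0.0463) without the same library. SEMA4D, the ligand of PLXNB1, was at −0.15 (95% interval −0.40 to 0.10). SEMA4B was at −0.11 and SEMA6B at −0.05, and the estimates of SEMA4B, SEMA4D and SEMA6B were at or above 0 under quantile normalization.

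Of the 8 ephrins 6 were tested, 1 fell, against 30.5% of all tested genes, and 5 did not pass, with a median log2 fold change of −0.10, the same as that of all tested genes. EFNA4, a lipid-anchored ligand of EphA receptors, went from 23.3, 26.6 and 29.4 TPM in shEV to 22, 21.9 and 17.3 TPM in shPAX2. The groups did not overlap but nearly touched, and the log2 fold change was −0.37 (SE 0.11, adjusted p = 0.0315). The EFNA4 call was kept in 8 of 16 alternatives and lost in the others, among them median-of-ratios scaling (−0.26, adjusted p = 0.104), no filter (0.0619) and leaving out shEV replicate 2 (0.0896), shEV replicate 3 (0.104) or shPAX2 replicate 3 (0.0752). EFNA3, beside it on chromosome 1, was at 18.1, 21.9 and 31.4 TPM in shEV and 18.2, 15.7 and 16.6 TPM in shPAX2. EFNA3 had a larger estimate of −0.45 but a wider spread in shEV (adjusted p = 0.118 by limma), and passed without shEV replicate 1 (−0.63, 0.0193) and with limma voom (−0.49, 0.0360).

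The remaining ephrins did not pass. EFNB1, an ephrin-B with a cytoplasmic tail, was at 27.1 ± 1.1 TPM in shEV and 25.6 ± 2.51 TPM in shPAX2, a log2 fold change of −0.08 (95% interval −0.26 to 0.10). EFNA1, the best known ligand of EPHA2, was at −0.12 (95% interval −0.38 to 0.14). EFNA2 was at 0.10 (95% interval −0.42 to 0.62). EFNB3 was at 0.29 (adjusted p = 0.118 by limma) and passed under median-of-ratios scaling (0.40, 0.0466), under quantile normalization (0.51, 0.0145) and without shEV replicate 3 (0.42, 0.0455). The estimates of EFNB1 and EFNA1 were above 0 under quantile normalization, and that of EFNB1 also under median-of-ratios scaling.

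The 20 genes below the filter were at most 0.556 TPM in any library, and in 9 of them no library held more than 3 recovered reads. A fit with no filter, over 17471 genes, gave an adjusted p under 0.05 to 3 of these 20. SEMA3G, a class 3 semaphorin of vessels, was read 4, 9 and 6 times in shEV and 32, 22 and 18 times in shPAX2. Scaled to the total reads, this was 232% of shEV (exact 95% binomial interval 138% to 407%), and its adjusted p was 0.0110 by limma. EPHA10, an Eph receptor with an inactive kinase domain, was read 3, 9 and 4 times in shEV and 26, 16 and 20 times in shPAX2, or 237% of shEV (135% to 440%), with an adjusted p of 0.0460 by limma. EFNB2, the ligand of EPHB4, was read 4, 11 and 13 times in shEV and 8, 3 and 1 times in shPAX2, or 26.2% of shEV (12.2% to 53.3%), with an adjusted p of 0.0239 by limma.

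These shares stand beside 8.72% of all genes higher and 21.8% lower in the fit with no filter. The reads carry no molecular identifiers, so the intervals cover counting error only. EFNA5 was read 1, 2 and 6 times in shEV and not at all in the 3 shPAX2 libraries, which puts it at 0% to 31% of shEV by the exact interval, with an adjusted p of 0.114 by limma. SEMA4G, which overlaps MRPL43 on the opposite strand, was read 0, 4 and 9 times in shEV and 6, 2 and 1 times in shPAX2. EPHA7, SEMA3D and SEMA5A each had a value in 1 shPAX2 library and none elsewhere. It was recovered as 1 read, the least possible, as a single library gives no ratio. Nothing can be read about these genes at this depth. PLXNB3 and EPHB1 had up to 18 and 29 reads in a library, and their groups overlapped.

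**Figure D4:**
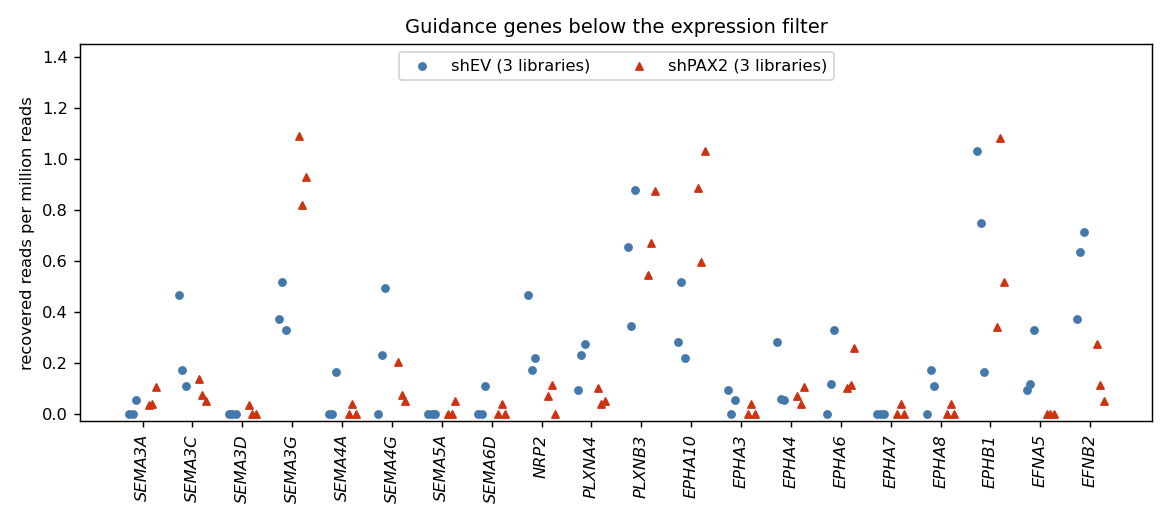
The recovered reads of the 20 guidance genes below the filter, scaled to the total reads of each library (y axis), in the 3 shEV libraries (circles) and the 3 shPAX2 libraries (triangles). SEMA3G and EPHA10 are higher in each shPAX2 library, EFNB2, NRP2 and EFNA5 are lower, and the others overlap.

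Genes that act with these receptors moved in both directions. Their lists were written with earlier results of these data known, so their counts are a description and were not tested. Listed means that the symbol as written had values, so a gene present under another symbol was not counted as listed. Of 23 co-receptors and other ligands, 20 were listed and 12 tested, of which 4 fell and 4 rose at an adjusted p under 0.05, against 30.5% and 12.2% of all tested genes, with a median of −0.02. L1CAM, among the 4 that rose, reached the filter through its shPAX2 libraries alone. FLT1, a receptor that shares growth factors with neuropilins, rose from 3.46 ± 1.33 to 39.4 ± 15 TPM (SD, n = 3), a log2 fold change of 3.30 (SE 0.42, adjusted p = 0.00399). ITGA1, an integrin chain of the collagen receptor, fell from 2.11 ± 0.302 to 0.113 ± 0.0342 TPM, a log2 fold change of −2.08 (SE 0.17, adjusted p = 2.77e-05), and reached the filter through its shEV libraries alone.

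Of 40 effectors of plexins and semaphorins 38 were tested, of which 11 fell, 5 rose and 22 did not pass, with a median of −0.04. These shares lay near those of all tested genes, 30.5% lower and 12.2% higher. Collapsin response mediator proteins, cytoskeletal adaptors of semaphorin signalling, went both ways. DPYSL2 fell from 130 to 82.8 TPM (−0.65, adjusted p = 0.000207 by limma) and DPYSL4 from 110 to 80.9 TPM (−0.43, 0.0041), and both were more abundant than the 2 family members past the threshold, which rose. DPYSL5 rose from 0.887 ± 0.182 to 13.7 ± 1.17 TPM (log2 fold change 3.37, SE 0.13, adjusted p = 4.11e-07). CRMP1 rose from 0.0529 ± 0.0656 to 0.890 ± 0.190 TPM (1.33, SE 0.20, adjusted p = 0.000883). CRMP1 reached the filter through its shPAX2 libraries alone.

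Of 49 symbols of effectors of Eph receptors and ephrins, among which AFDN and MLLT4 name the same gene, 45 were listed and 40 tested. Of these, 19 fell, 2 rose and 19 did not pass, against 30.5% lower and 12.2% higher of all tested genes, with a median of −0.21. As this list too was written with earlier results known, the difference from those shares is no independent support. ANKS1B, among the 19 that fell, reached the filter through its shEV libraries alone. The 4 past the threshold all fell, against 3.11% of all tested genes. GRIP1, a PDZ scaffold that binds ephrin-B tails, fell from 10.1 ± 0.921 to 0.226 ± 0.0729 TPM (log2 fold change −3.86, SE 0.14, adjusted p = 2.38e-07), and reached the filter through its shEV libraries alone. LYN, a Src-family kinase, fell by 2.38 on the log2 scale (adjusted p = 5.55e-06 by limma), GRB10, an adaptor protein, by 1.90 (8.31e-07) and KALRN, which acts downstream of EphB receptors, by 1.0 (0.00113). Of 23 genes of the netrin and other guidance families 16 were listed and 7 tested, of which 3 fell and 1 rose, against 30.5% and 12.2% of all tested genes. NTN1, the ligand netrin-1, fell from 5.55 ± 0.201 to 1.94 ± 0.403 TPM (−1.32, SE 0.14, adjusted p = 0.000125), and its receptor UNC5B rose from 8.71 ± 0.621 to 22.8 ± 3.78 TPM (1.33, SE 0.12, adjusted p = 6.87e-05). NEO1, another netrin receptor, went the other way, from 28.6 ± 2.30 to 15.5 ± 0.378 TPM (−0.86, SE 0.07, adjusted p = 3.81e-05 by limma), short of the fold threshold.

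Markers of the labelled and of other cell types were read in the same libraries. Of 18 epithelial markers 16 were listed and 1 was tested: KRT18, a keratin, was at 11.2 ± 1.47 TPM in shEV and 14.9 ± 2.82 in shPAX2 and did not pass, while CDH1 and EPCAM were below 0.3 TPM on average in both groups, so most defining markers of the labelled epithelial type were near 0. The 8 mesenchymal markers had 4 tested genes, of which SNAI2 fell, and VIM was at 4212 ± 184 TPM in shEV and 3808 ± 59.0 in shPAX2. Of 9 endothelial markers, a class of cells rich in NRP1 and PLXND1, 5 were listed and their summed TPM was 2.33 to 3.51 in shEV and 1.28 to 1.65 in shPAX2. That sum was nearly all ESAM (log2 fold change −0.87, adjusted p = 0.00314 by limma), while CDH5, TEK, TIE1 and VWF were below 0.03 TPM on average in both groups. Of 10 neuronal markers 6 were listed, and the summed TPM of 4.78 to 6.05 in shEV and 33.8 to 36.6 in shPAX2 was nearly all SYP, with RBFOX3, SYT1 and NEFL below 0.02 TPM on average. SNAP25, another neuronal marker, lay below the filter with no read in shEV and 9, 9 and 2 reads in shPAX2 (adjusted p = 0.0175 by limma with no filter). In the same fit 3 other markers below the filter were lower: EPCAM (adjusted p = 0.0176 by limma), FN1 (0.0308) and PDGFRA (0.00901).

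Of 6 fibroblast markers 4 were listed, and their summed TPM went from 810 to 857 in shEV to 361 to 440 in shPAX2. COL1A2 made up most of it and fell past the threshold (log2 fold change −1.11, adjusted p = 1.75e-05 by limma), while THY1 was below 0.04 TPM on average in both groups and PDGFRA at 0.252 TPM in shEV and 0.0703 in shPAX2. Of 5 leukocyte markers 4 were listed, and the summed TPM of 0.897 to 1.71 in shEV and 1.73 to 2.45 in shPAX2 was mostly CD68, with PTPRC below 0.01 TPM on average. The endothelial and fibroblast sums fell with NRP1 and the plexins, as did the mesenchymal sum (4156 to 4536 TPM in shEV, 3867 to 3975 in shPAX2). The neuronal and leukocyte sums rose, and the epithelial sum overlapped between the groups. Each sum was mostly 1 gene, and the part of any of them in those changes was not tested.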

How the data were processed

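RNA-seq of 6 AN3CA libraries, 3 shEV and 3 shPAX2, was taken up as deposited by the authors: TPM values for 17471 genes named by symbol, with no read counts. The submitters' processing notes name bcl2fastq, STAR, Subread, featureCounts and edgeR and the build hg19, without versions, and the study describes stranded total RNA libraries for another line, Ishikawa. The strand setting of the counting is not given in the sources used here.

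Guidance genes were matched by symbol. The genes and gene lists were chosen with earlier results of these data known. Coordinates came from GENCODE v44lift37 (GRCh37, the same assembly as hg19), in which 15324 symbols were found, and upstream sequences from RefSeq on GRCh38.p14, at the outermost start of each gene. From the deposited TPM, log2(TPM + 0.5) was computed and genes that reached a TPM of 0.5 in 3 or more libraries were fitted with limma 3.58.1 in R 4.3.3 (lmFit, eBayes with trend and robust, two-sided), with Benjamini-Hochberg adjustment over 13163 genes and a threshold of 0.05 on the adjusted p and of 1 on the size of the log2 fold change. Every adjusted p is from this fit unless another is named. The main fit was not made on counts, as the deposited unit is TPM. Reads recovered from the TPM were fitted with limma voom as an alternative.

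Within each gene the ratios of TPM between libraries were ratios of whole numbers in 17471 of 17471 genes (tolerance 1e-12, largest relative deviation 7.15e-14), so whole reads were recovered, up to a factor common to the libraries of a gene. They gave the depth, which limits low genes, and the exact binomial intervals at 95%. Within each group the recovered reads differed by more than counting error, and no library was counted as a repeat of another. By chi-square per degree of freedom, shPAX2 replicate 1 stood apart in its group, at 12 and 14.9 from shPAX2 replicates 2 and 3. Those replicates were at 3.72 from each other, and the shEV pairs at 3.12 to 5.3. Equal replicate numbers did not mark pairs, as shown in the closing section. Genes past the threshold were named with every library's value, the other guidance genes with means, SD or fold changes, and genes of the other lists mainly where past the threshold, with marker genes for the cell type check. Alternatives were other pseudocounts, filters, scalings, moderation, call thresholds, a replicate block, limma voom on recovered reads and leaving out each library. The fit was tested on simulated data.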

Additional observations from a re-analysis of the deposited data

How the results depend on the processing

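Over the alternatives, NRP1, PLXNA3, PLXNB1, PLXNB2, PLXND1, EPHB2, EPHB6, SEMA3F and SEMA6A, and PLXNA2 and PLXNC1 where tested, were lower at an adjusted p under 0.05 in each, and PAX2 stayed between −1.87 and −1.20 (not tested with the filter at a TPM of 5). Genes past the threshold, 2 and both lower, became 4 with a pseudocount of 0.1, where EPHB2 and PLXNC1 joined, 3 with limma voom, where PLXNC1 joined, 3 without shEV replicate 3 or shPAX2 replicate 1, where EPHB2 joined, and 1 with a pseudocount of 1, with the filter at a TPM of 5, where PLXNA2 was not tested, and with quantile normalization. With no fold threshold there were 16, of which 15 were lower and 1 higher. The median log2 fold change of the tested guidance genes, −0.30, was −0.13 with no filter, which adds genes near 0 reads. It was −0.19 with median-of-ratios scaling and −0.16 with quantile normalization. The median of all tested genes, −0.10, was −0.07, 0.01 and 0.00 in these settings, in the same order. At an adjusted p under 0.05, ligands that were lower numbered 2 under median-of-ratios scaling, quantile normalization and the replicate block, and 2 to 6 on leaving out 1 library (2 without shEV replicate 3 or shPAX2 replicate 3). Genes that were higher numbered 3 under median-of-ratios scaling, 3 under quantile normalization, 2 with limma voom, 0 with the replicate block and 0 to 2 on leaving out 1 library (0 without shEV replicate 2 or shPAX2 replicate 2, and 2 without shPAX2 replicate 1). These 2 counts and those of plexins and receptors were added as results after seeing the data, and the latter stayed at 5 to 7 and 9 to 11. Apart from the fit with no filter, the share of all tested genes was not counted for the alternatives. The cause was not tested beyond the genes added or removed by a filter.

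Estimates that changed sign were those of genes that had not passed. Under median-of-ratios scaling SEMA4B was at 0.00, SEMA6B at 0.03 and EFNB1 at 0.03. Under quantile normalization EFNA1 was at 0.06, SEMA4B at 0.11, SEMA6B at 0.19, EPHB3 at 0.04, SEMA4D at 0.08 and EFNB1 at 0.01. On leaving out 1 library EFNA2 ran from −0.06 to 0.31, SEMA6B from −0.10 to 0.02 and EFNB1 from −0.13 to 0.00. Over all single-gene estimates and alternatives, 399 kept direction and call, 29 lost the call, 13 gained it and 14 changed sign.

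Same-numbered libraries did not deviate together (correlations of −0.0523, 0.0815 and 0.0014 for replicates 1 to 3). With the replicate block 2 guidance genes were past the threshold, as without it. Depth limits the genes below the filter, where a few reads decide the value, and the size of the NRP1 fold.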
